A study of Homo sapiens with 4 samples.

Results

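The genes described here are 10 genes of fatty acid synthesis and desaturation, namely FASN, ACACA, ACLY, SCD, ACSS2, ELOVL5, ELOVL6, FADS1, FADS2 and SREBF1. They were chosen by name, with earlier results of these data known. Probe sets named 19775 genes alone. T-47D cells, an estrogen receptor-positive breast cancer line, and MDA-MB-231 cells, a breast cancer line that lacks hormone receptors and HER2 amplification, were each exposed for 24 h to 100 μM JPH203, an inhibitor of the amino acid transporter LAT1, or to Captisol, the vehicle, which the labels give at 100 μM as well. Each of these 4 conditions was measured once on an Affymetrix U133 Plus 2.0 array, so no value has a replicate, an error or a p-value. Values are linear signal intensities, each array having been scaled on its own. A gene was called lower or higher with JPH203 at a signal ratio of at most 0.5 or at least 2, provided that both arrays of that line reached a signal of 100. Where several probe sets named a gene alone, the brightest gave its level, and brightest here means the highest mean signal over the 4 arrays. Of the 10 genes, 9 had such a probe set, 23 probe sets in all. The 3 probe sets listed for FADS1, a fatty acid desaturase, also name the microRNA MIR1908, whose hairpin lies within the FADS1 gene, and gave no value for FADS1 here.

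Fatty acids are built in the cytosol from acetyl-CoA, which ACLY makes from citrate and ACSS2 from acetate. ACACA, acetyl-CoA carboxylase, turns acetyl-CoA into malonyl-CoA, and FASN, fatty acid synthase, joins these units into palmitate. ELOVL6 lengthens palmitate and SCD, stearoyl-CoA desaturase, places a double bond in saturated chains, while ELOVL5, FADS1 and FADS2 lengthen and desaturate polyunsaturated chains. SREBF1 encodes the transcription factor SREBP1, which is made as a membrane-bound precursor, is released by cleavage in the Golgi and raises transcription of these enzymes. Breast cancer cells often synthesize fatty acids actively, and mTORC1, which senses amino acids, is known to favour SREBP1 activity.

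Promoter sequences are shown for 4 of the enzymes, the 3 called lower in T-47D cells for which RefSeq promoters were at hand and ELOVL5, which was not called, so that the letters before their start sites can be compared. Each line is the 250 bases before an annotated start on GRCh38.p14, the start farthest upstream where several were listed, 5′ to 3′ on the strand of the gene, with capitals for a CCAAT box (CCAAT, the NF-Y motif), a GC box (GGGCGG, the SP1 motif) or an E-box (CACGTG, a motif SREBP1 can bind). Both strands were searched, so that ATTGG and CCGCCC are the same boxes read on the other strand, and neighbouring GC boxes may share letters.
SCD, chr10:100346983-100347232, + strand: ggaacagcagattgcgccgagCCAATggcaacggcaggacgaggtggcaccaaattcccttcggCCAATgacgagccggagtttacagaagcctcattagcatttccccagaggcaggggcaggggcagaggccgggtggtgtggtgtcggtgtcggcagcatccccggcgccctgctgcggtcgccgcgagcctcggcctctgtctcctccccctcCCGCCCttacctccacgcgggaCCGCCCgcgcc
ACLY, chr17:41919023-41919272, - strand: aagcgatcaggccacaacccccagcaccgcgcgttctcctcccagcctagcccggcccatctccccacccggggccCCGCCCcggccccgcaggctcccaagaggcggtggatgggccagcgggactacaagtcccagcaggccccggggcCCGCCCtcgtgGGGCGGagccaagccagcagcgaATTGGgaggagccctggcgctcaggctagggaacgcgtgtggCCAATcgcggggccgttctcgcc
ACACA, chr17:37406837-37407086, - strand: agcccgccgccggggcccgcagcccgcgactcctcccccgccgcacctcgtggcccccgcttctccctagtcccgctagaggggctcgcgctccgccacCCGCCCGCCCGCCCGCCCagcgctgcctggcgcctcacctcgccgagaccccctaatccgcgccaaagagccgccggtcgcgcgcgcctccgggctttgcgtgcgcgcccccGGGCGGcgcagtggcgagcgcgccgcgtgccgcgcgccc
ELOVL5, chr6:53348951-53349200, - strand: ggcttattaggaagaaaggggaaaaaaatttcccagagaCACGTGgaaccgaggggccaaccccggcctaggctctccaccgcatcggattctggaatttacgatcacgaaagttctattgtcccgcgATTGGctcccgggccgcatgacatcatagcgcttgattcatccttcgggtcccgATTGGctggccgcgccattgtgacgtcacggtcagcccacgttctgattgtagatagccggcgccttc

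The windows of SCD and ACLY each held 2 CCAAT boxes, lying 229 and 186 bases before the start in SCD and 65 and 23 before it in ACLY. SCD also held 2 GC boxes and ACLY 3, while the ACACA window shown held 5 GC boxes and no CCAAT box. The ACACA windows not shown, at starts farther downstream, held 2 and 1 CCAAT boxes. That of ELOVL5 held 2 CCAAT boxes and the E-box, 211 bases before the start. The RefSeq promoters used held 14 windows for 9 of the 10 genes, and FASN was not analysed here. A CCAAT box was present in 7 of these 14 windows, from 5 of the 9 genes, against 32% of all 35116 windows of the same length. A GC box was present in 11 of 14, from 8 genes, against 42.6%. Windows of 1 gene can overlap, as those of ACLY do, and then count the same boxes again. The E-box was found in 1 window of the 14, that of ELOVL5, against 6.34% of all windows. The windows of ACSS2 and SREBF1, also measured and not called in T-47D cells, held none, so ELOVL5 does not stand for the genes not called. A sterol regulatory element written as TCACNCCAC was in 0 of the 14 and in 0.883% of all windows. These are matches of letters in a short window and were not tested as binding sites.

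In T-47D cells, 4 of the 7 genes that reached 100 on both arrays were called lower with JPH203, and none was called higher. These were SCD, ACACA, FASN and ACLY, which together lead from citrate to monounsaturated fatty acids. Of all 6416 genes with that signal, 2.42% were called lower and 2.23% higher. As the members were chosen with earlier results of these data known, their count is not independent of these arrays. All 7 members had a ratio below 1, as did 51.7% of all genes. The median log2 ratio of the 7 was -1.11, and that of all genes was -0.02. With whole cultures on each array, fewer cells with a transcript and less transcript per cell cannot be told apart.

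**Figure D1:**
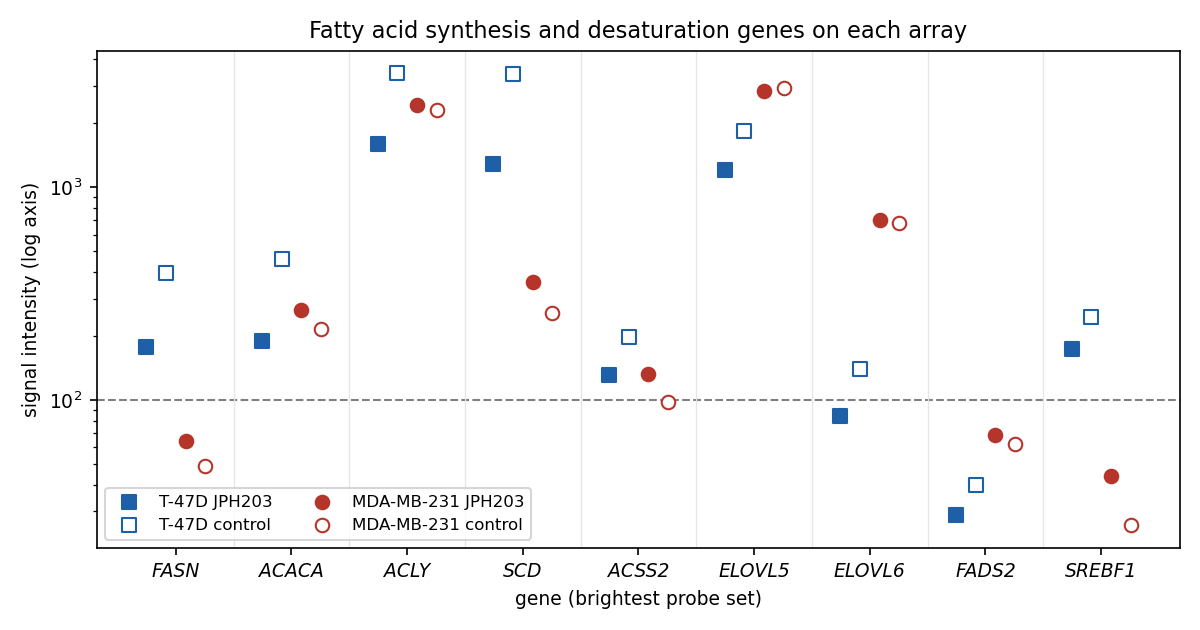
Signal intensities (y axis, log scale) of the brightest probe set of each of 9 genes (x axis), 1 point per array, with filled symbols for JPH203, open symbols for control, squares for T-47D cells and circles for MDA-MB-231 cells. The dashed line is a signal of 100; in T-47D cells every filled square lies below its open square, and SCD stands at 1289 with JPH203 and 3414 in the control.

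The acetyl-CoA suppliers were ACLY and ACSS2. ACLY had signals of 1594 with JPH203 and 3436 in the control in T-47D cells, a ratio of 0.464. In MDA-MB-231 cells it had 2427 with JPH203 and 2305 in the control, a ratio of 1.05. The T-47D control array was thus the brightest of the 4 for ACLY and the T-47D JPH203 array the dimmest. Its other probe sets had T-47D ratios of 0.420 and 0.564 and MDA-MB-231 ratios of 0.887 and 0.904. All 3 were below 1 in T-47D cells, and the dimmest of them missed the threshold. ACSS2 had 132 with JPH203 and 199 in the control in T-47D cells, a ratio of 0.663, and was not called. In MDA-MB-231 cells it had 132 with JPH203 and 97.9 in the control, and as the control was below the minimum no ratio was read there.

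The enzymes that build palmitate were ACACA and FASN. ACACA had signals of 189 with JPH203 and 461 in the control in T-47D cells, a ratio of 0.410, which ranked 31 from the lowest of 6416 genes. In MDA-MB-231 cells it had 266 with JPH203 and 215 in the control, a ratio of 1.24. The second ACACA probe set did not share the T-47D fall, with 138 with JPH203 and 134 in the control, a ratio of 1.03. Which of these probe sets measures most ACACA transcripts was not tested. FASN had 177 with JPH203 and 395 in the control in T-47D cells, a ratio of 0.449, ranking 70 from the lowest. In MDA-MB-231 cells FASN had 64.3 with JPH203 and 48.9 in the control, both under 100. The other FASN probe set was under 100 on all 4 arrays, between 1.9 and 18.4.

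Among the desaturases, SCD had the lowest T-47D ratio of the members. Its signal was 1289 with JPH203 and 3414 in the control in T-47D cells, a ratio of 0.378, ranking 18 from the lowest of 6416 genes. In MDA-MB-231 cells SCD had 358 with JPH203 and 256 in the control, a ratio of 1.40, which ranked 6683 from the lowest of 6777 genes but did not reach 2-fold. The second SCD probe set had 362 with JPH203 and 759 in the control in T-47D cells, a ratio of 0.477, and 63.3 with JPH203 and 70.1 in the control in MDA-MB-231 cells. Both probe sets above the minimum therefore passed the threshold in T-47D cells, while the MDA-MB-231 ratio above 1 rests on the brighter one. The remaining SCD probe sets were under 100 on all 4 arrays. FADS2 was also under 100 on all 4 arrays, with 28.8 with JPH203 and 39.9 in the control in T-47D cells and 68.6 with JPH203 and 62.2 in the control in MDA-MB-231 cells.

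The elongases were not called in either line. ELOVL5 had signals of 1212 with JPH203 and 1840.4 in the control in T-47D cells, a ratio of 0.658, and 2825 with JPH203 and 2932 in the control in MDA-MB-231 cells, a ratio of 0.963. Its next probe set had a T-47D ratio of 1.07 at signals of 119 with JPH203 and 112 in the control, and so did not share the direction of the brightest. ELOVL6 had 84.5 with JPH203 and 139.5 in the control in T-47D cells, and as the JPH203 signal was below the minimum it was not counted there. In MDA-MB-231 cells it had 699.5 with JPH203 and 680.2 in the control, a ratio of 1.03, and its second probe set 303 with JPH203 and 335 in the control. SREBF1, the regulator of the group, had 173.5 with JPH203 and 246 in the control in T-47D cells, a ratio of 0.706, ranking 1136 from the lowest. In MDA-MB-231 cells SREBF1 had 44.2 with JPH203 and 25.8 in the control, both under 100. That the enzymes called lower had lower ratios than SREBF1 follows from the threshold, which SREBF1 did not pass. The uncalled enzymes ELOVL5, at 0.658, and ACSS2, at 0.663, had ratios closer to that of SREBF1. Differences between these genes could not be tested with 1 array each.

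**Figure D2:**
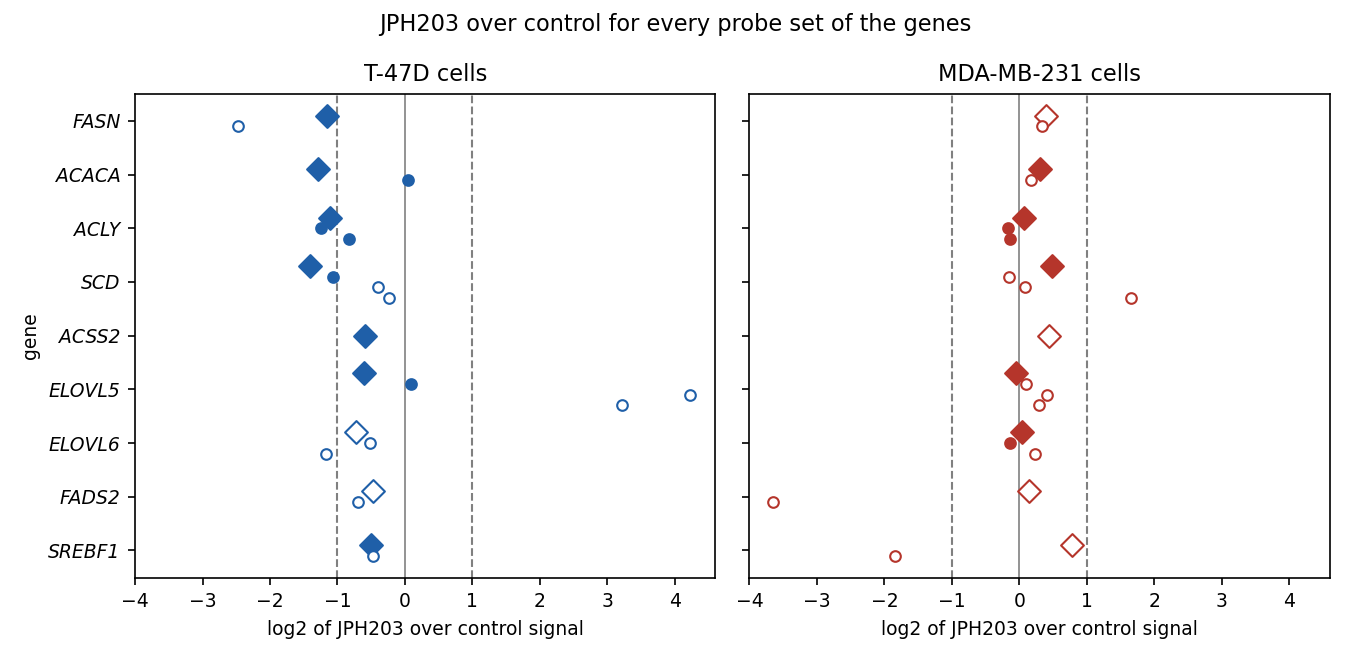
Log2 of the JPH203 over control signal (x axis) of every probe set naming 1 of 9 genes alone (y axis) in T-47D cells (left) and MDA-MB-231 cells (right), with diamonds for the brightest probe set, circles for the others, filled where both arrays reached 100 and open where not; dashed lines mark 2-fold. In T-47D cells the filled diamonds of SCD, ACACA, FASN and ACLY lie left of the lower line, and the second ACACA and ELOVL5 probe sets lie near 0, at ratios of 1.03 and 1.07.

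How far probe sets of 1 gene differed describes the scatter between probe sets on the same RNA, and not that between separate cultures, which was not measured. For 1968 genes with 2 probe sets above the minimum in T-47D cells, the log2 ratios of the 2 brightest differed by a median of 0.18, and by less than 0.55 for 90% of them. In MDA-MB-231 cells these values were 0.12 and 0.33 over 2388 genes. The pairs of SCD, 0.378 and 0.477, and ACLY, 0.464 and 0.420, lay within the T-47D range, while the pairs of ACACA, 0.410 and 1.03, and ELOVL5, 0.658 and 1.07, lay outside it. Of the 4 members with such a pair in T-47D cells, 2 thus differed by more than 90% of genes did. Of 63 genes whose brightest probe set was called lower in T-47D cells and had a second above the minimum, 27 passed the threshold on the second too, and 59 had a second ratio below 1.

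In MDA-MB-231 cells, none of the 5 genes measured on both arrays was called. Their ratios lay between 0.963, for ELOVL5, and 1.40, for SCD, with a median log2 ratio of 0.07 against -0.01 for all genes. Of all 6777 genes measured there, 0.0148% were called lower and 0.0885% higher, so that few genes of any kind passed the threshold. A ratio below 1 was found for 1 of the 5 members and for 51.5% of all genes. The spread of all ratios differed between the lines, 95% of genes lying between 0.503 and 1.97 in T-47D cells and between 0.778 and 1.32 in MDA-MB-231 cells.

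The log2 ratio in T-47D cells minus that in MDA-MB-231 cells was -1.89 for SCD, -1.59 for ACACA, -1.18 for ACLY and -0.55 for ELOVL5, the 4 members measured on all 4 arrays. It was below 0 for each of them. The difference was not tested, as each line had 1 array per condition. The T-47D arrays also differed in technical measures. The ACTB 3-prime over 5-prime signal ratio, a sign of RNA integrity, was 1.72 with JPH203 and 1.39 in the control in T-47D cells, and 1.44 with JPH203 and 1.45 in the control in MDA-MB-231 cells. The same ratio for GAPDH was 0.867 with JPH203 and 0.940 in the control in T-47D cells, and so went the other way, and was 1.01 with JPH203 and 0.987 in the control in MDA-MB-231 cells. The poly-A spike-in signal with JPH203 exceeded the control 1.56-fold in T-47D cells, and its ratio to control in MDA-MB-231 cells was 0.927. Their part in the lower signals was not tested. With each array scaled to the spike-ins, the median of all T-47D genes moved to -0.67 and that of the members to -1.75, which by construction leaves the members -1.09 from the median of all genes, and all 7 were called lower. With the trend on gene length removed, ACACA, a gene of 322 kb, and ACLY, of 63.6 kb, missed the threshold in T-47D cells, at log2 ratios of -0.93 and -0.95, while SCD, of 17.6 kb, and FASN, of 19.9 kb, kept it.

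**Figure D3:**
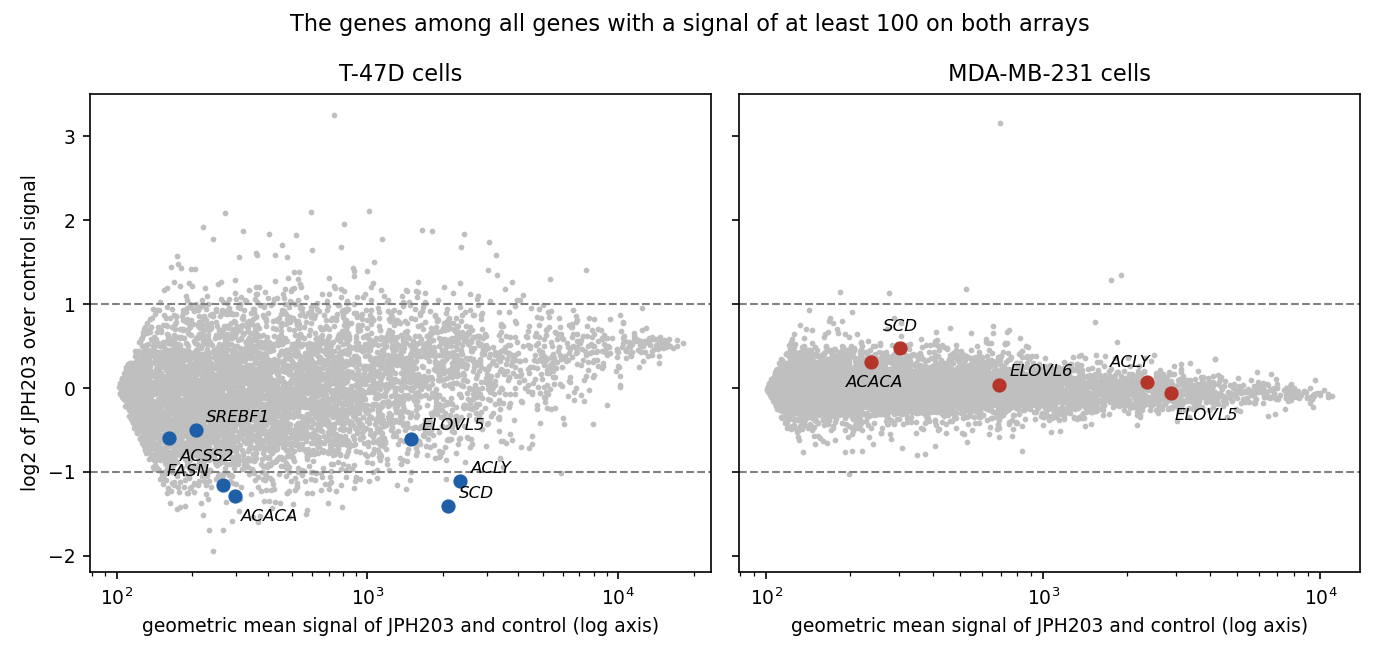
Log2 of the JPH203 over control signal (y axis) against the geometric mean of both signals on a log axis (x axis) for all genes that reached 100 on both arrays, 6416 in T-47D cells (left) and 6777 in MDA-MB-231 cells (right), 1 grey point per gene, with the members coloured and named; dashed lines mark 2-fold. In T-47D cells the 7 members lie below 0 and SCD, ACACA, FASN and ACLY below the lower line, and in MDA-MB-231 cells the 5 members lie between the lines.

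Between the vehicle-treated lines, 5 of 8 members with a signal of at least 100 on a control array were at least 2-fold higher in T-47D cells, and 1 was lower there, at a ratio of at most 0.5. Of all 8294 genes with that signal, 24.3% were at least 2-fold higher in T-47D cells and 23.5% had a ratio of at most 0.5, so that such differences were common. SCD had a signal of 3414 in T-47D cells and 256 in MDA-MB-231 cells, a ratio of 13.3. ACACA had 461 in T-47D cells and 215 in MDA-MB-231 cells, a ratio of 2.15, and missed 2-fold after median centring or spike-in scaling. ELOVL6 was the lower one, with 139.5 in T-47D cells and 680.2 in MDA-MB-231 cells, a ratio of 0.205, and its second probe set had 64.8 in T-47D cells and 335 in MDA-MB-231 cells. FASN, with 395 in T-47D cells and 48.9 in MDA-MB-231 cells, SREBF1, with 246 in T-47D cells and 25.8 in MDA-MB-231 cells, and ACSS2, with 199 in T-47D cells and 97.9 in MDA-MB-231 cells, were counted through T-47D cells alone, and the size of their differences is not read.

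ACLY had 3436 in T-47D cells and 2305 in MDA-MB-231 cells, a ratio of 1.49, and ELOVL5 had 1840.4 in T-47D cells and 2932 in MDA-MB-231 cells, a ratio of 0.628. Neither passed 2-fold. After JPH203, SCD was still higher in T-47D cells at the deposited scaling, with 1289 against 358 in MDA-MB-231 cells. The brightest ACACA probe set had 189 in T-47D cells and 266 in MDA-MB-231 cells. The second ACACA probe set went the other way, with 138 in T-47D cells and 40.4, under 100, in MDA-MB-231 cells. Spike-in signal on the JPH203 arrays was 1244 for T-47D cells and 227 for MDA-MB-231 cells. Levels after JPH203 were not compared between lines after scaling to the spike-ins. The control comparison depends on the scaling. Spike-in signal on the control arrays was 3.25-fold higher for T-47D cells than for MDA-MB-231 cells, and after scaling to it 3 members were at least 2-fold higher in T-47D cells and 3 had a ratio of at most 0.5. Set against the labels, all 14 luminal epithelial markers listed passed 2-fold in favour of T-47D cells on the control arrays, 8 of them with a signal under 100 in MDA-MB-231 cells. All 9 mesenchymal markers that reached 100 on either control array, of 12 listed, had a ratio of at most 0.5, and 8 of these were under 100 in T-47D cells. Most markers were thus counted through the line in which they were high.

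Other genes of lipid metabolism were taken by role. Of the 60 measured in T-47D cells over all these lists, 4 were called, all lower. Among all genes measured there, 2.42% were called lower and 2.23% higher. As each list is short, the counts of single lists are not read as contrasts between pathways. Of 12 genes that control SREBP processing and lipogenic transcription, 6 were measured in T-47D cells and INSIG1 was called lower, with 131.5 with JPH203 and 375 in the control, a ratio of 0.351. INSIG1 holds the SREBP precursors in the endoplasmic reticulum and is itself a known SREBP target. In MDA-MB-231 cells it had 473.5 with JPH203 and 386 in the control, a ratio of 1.23. MLX, a partner of the lipogenic factor ChREBP and the brightest of the list, had a T-47D ratio of 0.991. The list median log2 ratio was -0.20 in T-47D cells. SREBF2, which encodes the sterol regulator SREBP2 and was looked up after its values were seen, was under 100 on all 4 arrays.

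Of 14 genes that supply citrate, acetyl-CoA and NADPH, 9 were measured in T-47D cells. DLAT, a subunit of the pyruvate dehydrogenase complex, was called lower, with 337 with JPH203 and 783 in the control, a ratio of 0.430, and in MDA-MB-231 cells had 569.5 with JPH203 and 674 in the control, a ratio of 0.845. MDH1, cytosolic malate dehydrogenase and the brightest of the list, had a T-47D ratio of 1.30. The list median was -0.34. Of 19 other genes of synthesis and elongation, 9 were measured and none was called, with a median of -0.05, and CYB5R3, a cytochrome b5 reductase and the brightest of the list over the 4 arrays, though not in T-47D cells, had a ratio of 0.551. Of 16 acyl-CoA and glycerolipid genes, 4 were measured and none was called, with ACSL1, a long-chain acyl-CoA synthetase, at 0.502, close to the threshold, and a list median of -0.01. ACSL1 was called lower when any probe set of a gene could pass, and with the mean of its probe sets.

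Fatty acid oxidation, the opposing route, showed no call among 15 genes measured in T-47D cells, with 8 below and 7 above 1 and a median log2 ratio of -0.05. Few calls would be found among 15 genes at the shares of all genes called, 2.42% lower and 2.23% higher. ETFA, an electron carrier subunit and the brightest of the list, had a ratio of 1.21. Sterol synthesis, which shares SREBP control, had 2 of 15 measured genes called lower in T-47D cells, SQLE, squalene epoxidase, at 0.420 and DHCR7, a reductase of cholesterol synthesis, at 0.442. FDPS, farnesyl diphosphate synthase, its brightest gene over the 4 arrays though not on the T-47D JPH203 array, was at 0.772. The sterol list had 13 of 15 ratios below 1 and a median of -0.39, which lies between the -1.11 of the fatty acid genes and the -0.02 of all genes. The difference between these lists was not tested. Of 7 AMPK genes, which encode a kinase complex that inhibits ACACA and its upstream kinase, 2 were measured and none was called, with PRKAG1 at 1.32. In MDA-MB-231 cells none of these 7 lists held a called gene, where 0.0148% of all genes were called lower and 0.0885% higher. The list medians there lay between -0.10, for sterol synthesis, and 0.12, for fatty acid oxidation.

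**Figure D4:**
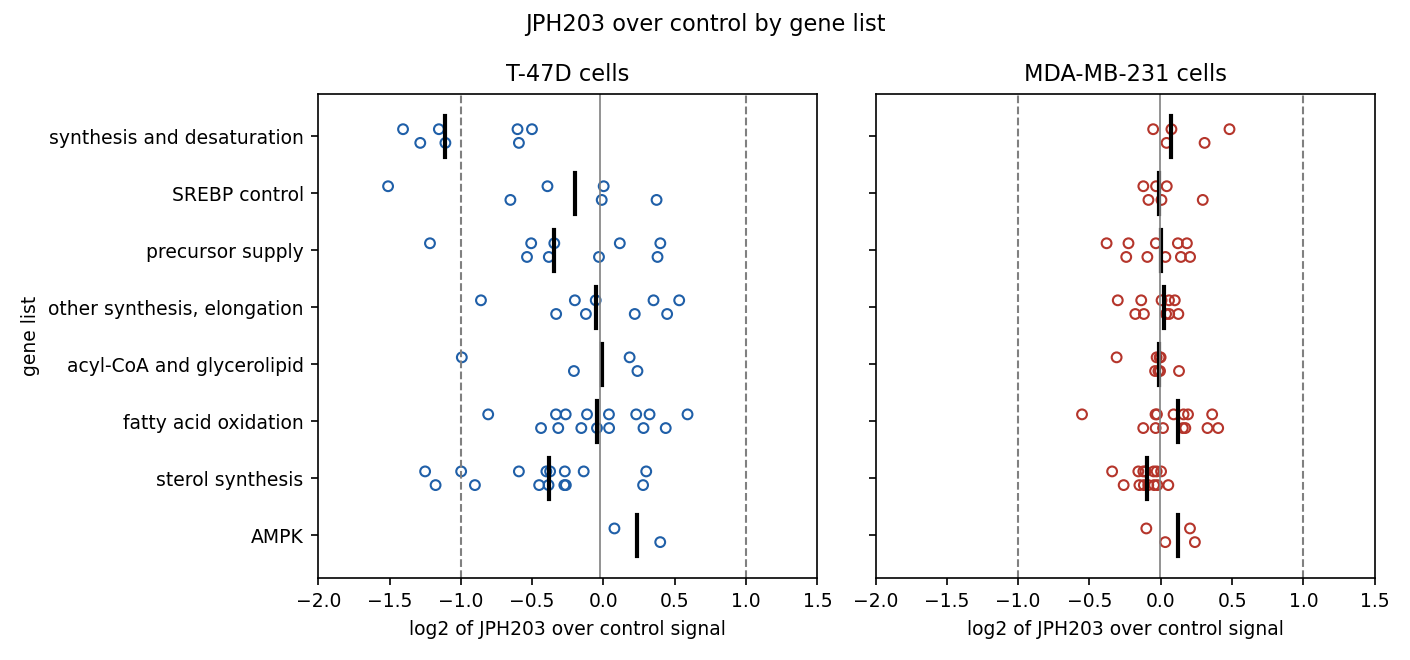
Log2 of the JPH203 over control signal (x axis) of the genes of each list (y axis) that reached 100 on both arrays, in T-47D cells (left) and MDA-MB-231 cells (right), with circles for genes, black bars for list medians, a grey line for the median of all genes and dashed lines for 2-fold. In T-47D cells the bar of the synthesis and desaturation genes lies at -1.11 and that of sterol synthesis at -0.39, while in MDA-MB-231 cells the bars lie between -0.10 and 0.12.

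Of 5201 genes outside these lists that reached 100 on each of the 4 arrays, the 5 nearest to the median profile of ACACA, ACLY, SCD and ELOVL5 over the 4 arrays were DGCR2, DLG5, LRP11, NDST1 and CRYBG1. Nearness was the Euclidean distance between log2 signals centred on the mean of each gene, which ran from 0.13 for DGCR2 to 0.19 for CRYBG1. DGCR2 had 196 with JPH203 and 432 in the control in T-47D cells and 272.5 with JPH203 and 267 in the control in MDA-MB-231 cells. With 4 arrays many genes share such a shape, so the likeness is a description.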

How the data were processed

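RNA of both lines after 24 h with JPH203 or Captisol was hybridised to U133 Plus 2.0 arrays, 1 per condition. The authors deposited linear signal intensity values per probe set, which the submitters' processing notes credit to GCOS; its version is not given in the sources used here. The mean without the lowest and highest 2% of values was close to 100 on every array. No genome build is named, so no gene coordinates are given except for the RefSeq promoters (GRCh38.p14).

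Of 54675 probe sets, 41097 named 1 gene, 1801 named several and 11777 are unnamed here; 41043 were matched to RefSeq by gene identifier. Probe sets with several names were left out. Calls required a 2-fold difference (ratios of 2 or more, or 0.5 or less) and a minimum signal of 100, reached by both arrays or, for the control comparison, by 1 of them. With 1 array per condition no test was run, and the number of arrays limits the precision. The genes and lists were chosen with earlier results of these data known. Named genes were all members, the called genes and the brightest gene of each other list, and the 5 genes of like profile; any other is marked. Alternatives covered normalization, gene length, pseudocount, minimum signal, fold threshold and choice of probe set, with the minimum applied to the deposited signals in the alternatives for normalization, gene length and pseudocount. Python 3.11.15, numpy 2.4.6, pandas 2.3.3, statsmodels 0.14.6 and matplotlib 3.10.9 were used.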

Additional observations from a re-analysis of the deposited data

Results flagged for a closer look

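A closer look was taken at members measured on all 4 arrays whose ratios lay on opposite sides of 1 in the 2 lines, and at genes of the other lists for which this held and which were also called in a line. These were 5 genes, each below 1 in T-47D cells and above 1 in MDA-MB-231 cells, and with 1 array per condition the difference was not tested. Further genes of the other lists, CYB5R3 among them, had ratios on opposite sides of 1 without being called. Among the members these were SCD, with a log2 ratio of -1.41 in T-47D cells and 0.48 in MDA-MB-231 cells, a difference of -1.89, ACACA, with -1.28 in T-47D cells and 0.31 in MDA-MB-231 cells, a difference of -1.59, and ACLY, with -1.11 in T-47D cells and 0.07 in MDA-MB-231 cells, a difference of -1.18. Of the other lists, INSIG1 had -1.51 in T-47D cells and 0.29 in MDA-MB-231 cells, a difference of -1.80, and SQLE had -1.25 in T-47D cells and 0.05 in MDA-MB-231 cells, a difference of -1.30. For ACLY the other 2 probe sets had MDA-MB-231 ratios below 1, so that its opposite direction rests on the brightest. The same holds for SCD and ACACA, whose second probe sets were under 100 in MDA-MB-231 cells. That of SCD had 63.3 with JPH203 and 70.1 in the control there, and that of ACACA had a T-47D ratio of 1.03. All MDA-MB-231 values lay within 2-fold.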

How the results depend on the processing

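With 1 array per condition no replicate could be left out. No paired analysis was possible because each condition had 1 array. The 4 members called lower in T-47D cells were the same genes after median centring, quantile normalization or loess on signal, and with 16 added to each signal. They were also the same at a minimum of 50 and with any probe set of a gene, but these settings can only add genes and cannot drop a called one. The count was 7 after spike-in scaling, 2 with the gene length trend removed (FASN and SCD), 2 at a minimum of 200 (ACLY and SCD, of 3 measured), 0 at 3-fold, 1 with the mean of probe sets (ACLY, of 4 measured) and 1 without _s_at and _x_at probe sets (ACACA, of 3 measured). With the mean of probe sets, the T-47D signals of FASN, at a log2 ratio of -1.82, and of ELOVL5, at 1.73 and so opposite in sign to its brightest probe set, were below the minimum on at least 1 array and not counted, while SCD, at -0.78, and ACACA, at -0.62, missed the threshold. The T-47D median was -1.75 after spike-in scaling, -0.92 at a minimum of 50, -0.70 with the mean of probe sets and -0.60 without _s_at and _x_at probe sets. The 6 members differing between the control arrays became 3 without these probe sets, 4 after median centring (without ACACA and ACSS2) and 5 with 16 added to each signal. With any probe set of a gene they became 7, with ELOVL5 added as higher in T-47D cells. After spike-in scaling ACLY and ELOVL5 took the place of ACACA and ACSS2. The 4 genes of the other lists called in T-47D cells became 8 after median centring, 20 after spike-in scaling, 12 at 1.5-fold, 0 at 3-fold and 2 without _s_at and _x_at probe sets. They became 5 with any probe set of a gene, with ACSL1 added, and 3 with the mean of probe sets (DLAT, ACSL1 and DHCR7). Median centring moved the median of all T-47D genes to -0.19 and spike-in scaling moved it to -0.67, so calls of lower genes could rise across the whole array. The share of all genes called under each alternative was not computed, and the larger counts are not read as results about these genes. No member was called in MDA-MB-231 cells under any alternative. Signals under 100 limit what can be said of FADS2 in both lines, of ELOVL6 in T-47D cells, and of FASN, SREBF1 and ACSS2 in MDA-MB-231 cells.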

Other observations

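The 3 probe sets that name both MIR1908 and FADS1 had signals of 87.4, 77.7 and 32.7 with JPH203 and 145, 114 and 84.9 in the control in T-47D cells. In MDA-MB-231 cells they had 534, 400.4 and 371.5 with JPH203 and 489, 394 and 341 in the control. The T-47D signals with JPH203 were all under 100, and no gene is named from them.

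Other lipid genes, chosen after their values were seen, differed between the control arrays beyond 2-fold, with 1 line below 100. SCD5, another stearoyl-CoA desaturase, had 2.6 in T-47D cells and 296 in MDA-MB-231 cells, opposite to SCD. ACSL4 and ACSL5, long-chain acyl-CoA synthetases, had 6.7 and 7.8 in T-47D cells, against 380 and 658 in MDA-MB-231 cells. MLYCD, malonyl-CoA decarboxylase, had 186 in T-47D cells and 28.2 in MDA-MB-231 cells. With JPH203, SCD5 had 12.7 in T-47D cells and 297 in MDA-MB-231 cells, so that it remained below 100 in T-47D cells.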
